A study of Mus musculus with 15 samples.

Results

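The genes described here set 1 mouse embryonic stem cell line, R1, apart from all 4 of the other lines profiled with it. A gene was taken when its mean expression value in R1 lay at least 1 log2 unit, that is 2-fold, above or below the mean of each of the other lines. Of 18193 measured genes, 364 (2.00%) lay above all 4 other lines in R1 and 187 (1.03%) lay below them, 551 in all. These values chose the genes, so every difference between R1 and the other lines is given as a description, with no test. The tests reported compare the other 4 lines with each other. The rule did not use those comparisons, but it did use the means of the same lines, so shares of the chosen genes called in them are descriptions.

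Total RNA of each line was labelled and hybridised to 3 Affymetrix arrays that cover the mouse genome, 15 in all. R1 is a line bought from the ATCC cell bank, derived after fertilisation in a cross between the 129S1/SvImJ and 129X1/SvJ substrains. NmB6D2 is also fertilised, from C57BL6 females mated with DBA2 males. The remaining lines are parthenogenetic, made from oocytes activated without sperm: OpB6D2 from naturally ovulated oocytes of B6D2F1 females, FpB6D2 from oocytes grown in cultured preantral follicles of B6D2F1 females, and FpB6CBA from oocytes grown the same way in B6CBAF1 females. B6D2F1 animals have a C57BL6 mother and a DBA2 father, and B6CBAF1 animals a C57BL6 mother and a CBA/Ca father. All 4 lines other than R1 therefore carry C57BL6 chromosomes and were established in the study itself. Each line is a single derivation, and nothing in the labels says that its 3 arrays came from separate cultures. Strain, laboratory of origin and all else that R1 alone has cannot be told apart.

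Embryonic stem cells are taken from the early epiblast and keep its capacity to form all tissues of the embryo. When they leave that state, signals of the Wnt, Nodal and BMP families turn on mesendoderm genes, the first genes of the primitive streak. Cultures of these cells are also known to express a group of germ line genes that DNA methylation and repressor complexes silence in the later embryo, and to respond weakly to interferon compared with differentiated cells.

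The pluripotency factors were expressed in every line. Pou5f1 averaged 11.71 in R1 and between 11.38 and 12.02 in the other lines, Sox2 averaged 11.26 against 10.96 to 11.21, and Nanog 10.98 against 9.81 to 11.39, all as log2 intensities. Across the 12813 genes with 3 or more arrays at or above 3.864, which is the median of every value in the table, R1 arrays correlated with each other at 0.9964 to 0.9967, with arrays of other lines at 0.9099 to 0.943, and arrays of different other lines with each other at 0.9463 to 0.9776. Genes are not independent replicates, so these are descriptions. The difference between the 3′ and 5′ actin probe sets, which grows with RNA degradation, was 0.52 to 0.55 in R1 and 0.48 to 0.76 in the other lines. Hybridisation controls read 9.10 to 9.34 in R1 and up to 10.20 in FpB6CBA.

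Put in the place of R1, no other line had as many genes to itself. The same rule took 20 genes above and 27 below in NmB6D2, 18 and 11 in OpB6D2, 57 and 47 in FpB6D2, and 108 and 46 in FpB6CBA. The median gap in R1, meaning the difference between its mean and the nearest other line mean, was 1.49 log2 units above and 1.29 below. A gap of at least 2 was reached by 93 genes above and 32 below, of at least 3 by 42 and 10, and of at least 4 by 15 and 2. At the edge of the rule above, 1700003F12Rik (1.006), Ephx2 (1.007) and Fgf5 (1.007) were just inside, and Sh3pxd2b (0.997), Zfp36l2 (0.997) and Zfp758 (0.995) just outside. Below, Acot7 (-1.001), Arhgef39 (-1.003) and Zfp185 (-1.004) were just inside, and Dtd2 (-0.998), Cenpm (-0.996) and Galc (-0.994) just outside. All 551 genes had R1 arrays that did not overlap the 12 others, as 11.7% of all genes did above and 11.3% below, which the rule itself largely fixes.

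**Figure D1:**
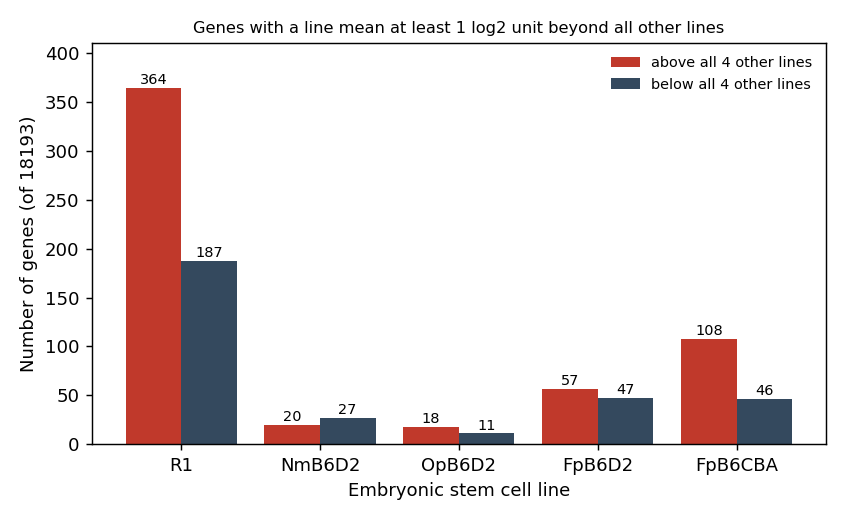
Bars count the genes, of 18193 measured, whose mean in a line lay at least 1 log2 unit above (red) or below (dark) the means of all 4 other lines. R1 held 364 and 187 such genes, and FpB6CBA, the line with the next highest number, 108 and 46.

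The rule itself makes the genes above lower elsewhere, so their levels are given as a description. Values under 3.864 are called background here, and detection calls were not used. The median level of these genes was 7.08 in R1, whereas the median of their level over the other lines was 4.79. In 71 of the 364, all 4 other means lay under 3.864. Background values are common outside the set too, as 12813 of all 18193 genes passed the filter on low values, so the 71 are not read as a trait of the set. Of the 364, 69 passed that filter solely through the R1 arrays, so the 358 that passed it were in part selected for being high in R1. Genes below the other lines ran the other way, with a median of 5.38 in R1 and 7.56 elsewhere, and 26 of the 187 had an R1 mean under 3.864. Wherever the lower mean lay under 3.864, that value took its place and the fold is written as "at least".

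The furthest genes above included genes of the early mesoderm and of cell migration. Aplnr, the receptor for apelin and an early mesoderm marker, read 8.94, 9.18 and 8.86 on the 3 R1 arrays. The other arrays read 2.77, 2.67 and 2.84 in NmB6D2, 2.86, 2.62 and 2.74 in OpB6D2, 3.003, 2.84 and 2.78 in FpB6D2, and 2.62, 2.86 and 2.86 in FpB6CBA. The R1 arrays did not overlap the others, which all lay at background, and the R1 mean was at least 35.0-fold higher. A further Aplnr probe set was weaker, at a mean of 5.04 in R1 and a gap of 1.19. Cxcr4, the chemokine receptor that guides migrating mesendoderm, read 8.04, 8.15 and 8.28 on the 3 R1 arrays. Its values were 3.002, 2.76 and 2.996 in NmB6D2, 3.33, 3.11 and 3.34 in OpB6D2, 3.18, 3.63 and 3.06 in FpB6D2, and 2.91, 3.17 and 3.18 in FpB6CBA. Again the groups did not overlap, and R1 was at least 19.6-fold higher than the nearest line. Mesp1, a transcription factor of cardiac and other early mesoderm, read 8.71, 8.84 and 8.49 on the 3 R1 arrays. Outside R1 it read 4.11, 4.28 and 3.81 in NmB6D2, 4.21, 4.13 and 3.96 in OpB6D2, 4.25, 4.10 and 4.49 in FpB6D2, and 3.88, 4.000 and 4.65 in FpB6CBA. All R1 arrays were higher than all others, 21.1-fold over the nearest line mean.

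Of 13 listed mesendoderm genes 12 were measured. Of the 12, 7 belonged to the genes above (58.3%, against 2.00% of all genes) and 0 to the genes below. The median difference between R1 and the mean of the other lines was 2.25 log2 units for this list and -0.05 over all genes. Besides Aplnr and Mesp1 the list held Mixl1, a homeobox gene of the primitive streak, with means of 6.82 ± 0.09 (SD, n = 3) in R1 and 3.42 to 3.76 in the other lines. Eomes, a T-box factor of streak and trophoblast, was expressed in every line, at 10.08 ± 0.19 in R1 and 7.12 to 7.49 elsewhere. Its gap was 2.59, and that of a further probe set 2.15. Fgf8, a growth factor of the streak, averaged 7.07 ± 0.28 in R1 and at most 3.18 in another line. The homeobox gene Evx1 averaged 7.20 ± 0.27 in R1, with FpB6D2 nearest at 4.22. Wnt3, the ligand that starts streak formation, was near background throughout, at 4.33, 3.72 and 4.60 on the 3 R1 arrays, of which 1 array lay under the filter value, and at 2.23 to 2.71 on the 12 other arrays. The 5 measured genes of the list outside the set differed from the mean of the other lines by -1.54 to 1.24. In RNA from bulk cultures, more cells of a type and more RNA per cell, or fewer cells and less RNA, cannot be told apart.

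Wnt and BMP pathway genes were also found among the genes above. Of 23 measured, 7 were above (30.4%, against 2.00% of all genes) and 0 below, with a list median of 0.85. Among secreted regulators, Dkk1, a Wnt inhibitor that Wnt signalling itself induces, read 8.28, 8.42 and 8.07 on the 3 R1 arrays. Elsewhere its values were 3.77, 3.71 and 3.82 in NmB6D2, 3.95, 4.02 and 3.81 in OpB6D2, 3.94, 3.89 and 3.64 in FpB6D2, and 3.80, 3.72 and 3.77 in FpB6CBA. R1 was 20.1-fold above OpB6D2, the nearest line, and no array of another line came near it; a further Dkk1 probe set had a gap of 2.82. Rspo3, a secreted Wnt agonist outside this list, averaged 7.22 ± 0.08 in R1 and 2.96 to 3.16 elsewhere. Nog, which binds and blocks BMP ligands, averaged 5.21 ± 0.04 against at most 3.44.

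Receptors and target genes of the pathway followed. Fzd10, a Wnt receptor, averaged 5.94 ± 0.13 in R1 and 4.78 in the nearest line. Of the direct Wnt targets, Sp5 averaged 7.98 ± 0.10 in R1 and 3.97 to 4.11 in the others, 14.6-fold over the nearest. Axin2, the feedback inhibitor and most used reporter of Wnt activity, averaged 7.80 ± 0.10 in R1, 5.78 in NmB6D2 and 4.82 in FpB6D2, the lowest line. Id1, a BMP target, was abundant everywhere, at 10.01 ± 0.04 in R1. The 12 arrays outside R1 differed for Id1 among themselves too: FpB6CBA lay below FpB6D2 by 1.03 ± 0.06 (SE of the fit, limma adjusted p = 2.6e-09). Porcn, which adds the lipid that Wnt ligands need for secretion, belonged to the opposite set, with a mean of 5.59 ± 0.08 in R1 and 8.01 to 8.85 in the other lines.

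Other genes with gaps of at least 4 log2 units had varied roles. Trh, which encodes thyrotropin-releasing hormone, averaged 10.47 ± 0.15 in R1 and 5.43 to 5.98 elsewhere. Igfbp3, a binding protein for insulin-like growth factors, averaged 10.39 ± 0.14 against 5.32 to 6.17, and its second probe set had a gap of 4.17. Actc1, the cardiac alpha-actin, averaged 7.98 ± 0.11 against 3.71 to 3.80. Cyp26a1, the enzyme that clears retinoic acid, read 9.89, 10.27 and 10.12 on the 3 R1 arrays. It read 4.55, 4.37 and 4.77 in NmB6D2, 4.48, 4.23 and 4.53 in OpB6D2, 4.74, 4.96 and 4.67 in FpB6D2, and 6.04, 5.74 and 6.04 in FpB6CBA. R1 was highest on every array, and FpB6CBA stood above the remaining lines, by 1.15 ± 0.13 over FpB6D2 (limma adjusted p = 3.1e-06). The BTB-domain genes Klhl6 and Kbtbd11 averaged 7.59 and 7.99 in R1 with nearest line means of 3.44 and 3.93. A further Kbtbd11 probe set that passed the filter did not show the difference, with R1 at 3.58 and the other lines at 3.66 to 4.09.

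**Figure D2:**
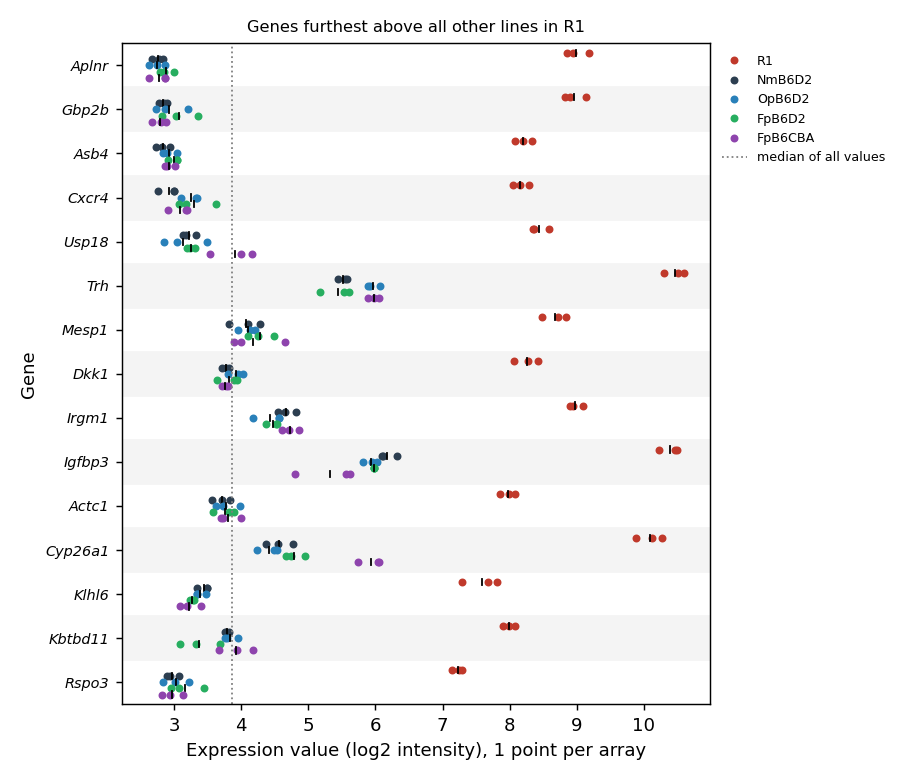
Each point is 1 array, on the log2 intensity scale, for the 15 named genes with the largest gap above the other lines. Black ticks mark line means, and the dotted line marks the median of all values, 3.864. For Aplnr, Gbp2b, Asb4, Cxcr4, Klhl6 and Rspo3 all 12 other arrays lie left of the dotted line, and in Cyp26a1 the FpB6CBA arrays lie between R1 and the rest.

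A part of the interferon response list formed a further group above, while most of its genes were outside the set. Of 64 measured, 11 were above (17.2%, against 2.00% of all genes) and 1 below (1.56%, against 1.03%). The list's median difference from the mean of the other lines was 0.15. R1 had the highest mean of all lines in 28 of the 64 and the lowest in 13, against 3902 and 5773 of all 18193 genes. The 52 listed genes outside the set differed from the mean of the other lines by -1.001 to 1.209. The members included GTPases of cell-autonomous immunity and regulators of the response.

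The promoter windows of 4 of the GTPase genes are shown because they hold the interferon-stimulated response element, searched as GAAANNGAAA on both strands with overlapping matches counted. Each is the 250 bases before the RefSeq start site in GRCm38.p6, printed 5′ to 3′ on the strand of the gene, with the element in capitals: Irgm1 at chr11:48871421-48871670 on the minus strand, Gbp2 at chr3:142620413-142620662, Gbp3 at chr3:142559794-142560043 and Irgm2 at chr11:58214727-58214976, the last 3 on the plus strand.
Irgm1: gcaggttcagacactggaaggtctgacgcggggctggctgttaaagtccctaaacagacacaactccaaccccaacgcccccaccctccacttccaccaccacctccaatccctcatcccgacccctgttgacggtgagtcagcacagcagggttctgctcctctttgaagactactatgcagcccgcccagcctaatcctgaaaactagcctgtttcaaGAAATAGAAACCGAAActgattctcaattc
Gbp2: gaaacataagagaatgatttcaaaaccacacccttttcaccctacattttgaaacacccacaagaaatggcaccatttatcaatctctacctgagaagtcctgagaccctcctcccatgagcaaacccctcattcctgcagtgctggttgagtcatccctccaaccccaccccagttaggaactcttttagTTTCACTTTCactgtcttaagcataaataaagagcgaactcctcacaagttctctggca
Gbp3: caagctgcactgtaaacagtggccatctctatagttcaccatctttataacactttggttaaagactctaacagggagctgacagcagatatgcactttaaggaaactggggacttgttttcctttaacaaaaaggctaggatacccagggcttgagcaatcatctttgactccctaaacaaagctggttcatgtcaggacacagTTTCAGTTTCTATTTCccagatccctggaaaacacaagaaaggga
Irgm2: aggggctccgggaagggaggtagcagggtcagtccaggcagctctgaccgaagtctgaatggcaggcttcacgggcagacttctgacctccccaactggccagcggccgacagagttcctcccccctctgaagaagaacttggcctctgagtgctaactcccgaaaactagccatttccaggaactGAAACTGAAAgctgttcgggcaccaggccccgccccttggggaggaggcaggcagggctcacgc
In Irgm1 and Gbp3 a pair of overlapping matches starts 30 and 24, or 45 and 39, bases before the start site. Of the 9 interferon members with a RefSeq promoter entry 5 (55.6%) held the element, as did 12 of the 40 other listed genes with an entry (30%) and 3.13% of the 14452 measured genes with one. A match is a description of these letters, not a binding site.

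The GTPase genes had several of the largest gaps. Gbp2b, a guanylate-binding protein gene, read 8.83, 9.14 and 8.91 on the 3 R1 arrays. The other arrays read 2.78, 2.89 and 2.85 in NmB6D2, 2.87, 2.72 and 3.20 in OpB6D2, 3.03, 2.82 and 3.35 in FpB6D2, and 2.80, 2.88 and 2.67 in FpB6CBA. No other array came near the R1 arrays, and all 12 lay at background. Irgm1, an immunity-related GTPase gene, read 8.94, 8.90 and 9.09 on the 3 R1 arrays. Its values were 4.65, 4.55 and 4.81 in NmB6D2, 4.56, 4.57 and 4.17 in OpB6D2, 4.52, 4.53 and 4.37 in FpB6D2, and 4.85, 4.71 and 4.61 in FpB6CBA. The other lines lay close together and R1 was 19.09-fold above the nearest. Gbp2 read 8.81, 8.62 and 8.62 on the 3 R1 arrays. Outside R1 it read 5.24, 5.41 and 5.62 in NmB6D2, 3.19, 3.16 and 3.50 in OpB6D2, 3.90, 3.95 and 3.77 in FpB6D2, and 4.54, 4.49 and 3.96 in FpB6CBA. R1 was highest on every array, and NmB6D2 stood above the parthenogenetic lines (log2 difference of OpB6D2 from NmB6D2 -2.14 ± 0.15 SE, limma adjusted p = 3.5e-08). Gbp3 averaged 6.004 ± 0.22, Irgm2 5.82 ± 0.15 and Igtp 7.21 ± 0.11 in R1, with nearest line means of 3.17, 3.31 and 5.82. Gbp and Irgm genes are families of similar sequence, so how far a probe set reads a relative is uncertain. The value used for Gbp2 comes from a probe set that may match several transcripts, and a further Gbp2 probe set without that mark had a gap of 3.57.

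Regulators and antigen-processing genes followed. Usp18, a protease that restrains interferon signalling, read 8.36, 8.58 and 8.35 on the 3 R1 arrays. Elsewhere its values were 3.18, 3.33 and 3.13 in NmB6D2, 3.05, 2.84 and 3.48 in OpB6D2, 3.24, 3.19 and 3.31 in FpB6D2, and 4.000, 4.16 and 3.54 in FpB6CBA. R1 was 23.1-fold above FpB6CBA, whose arrays were the highest of the remaining lines. Ifi35 averaged 8.64 ± 0.08 against at most 6.93, Samd9l 6.09 ± 0.23 against at most 3.62, and Rtp4 5.48 ± 0.27 against at most 3.91. Of 20 measured genes of MHC class I and antigen processing, 3 were above and 0 below, with a list median of 0.45. They were Psmb8 and Psmb10, catalytic subunits of the immunoproteasome, and Erap1, which trims peptides for class I molecules. Psmb8 averaged 7.85 ± 0.11 in R1 and 5.11 in the nearest line, Psmb10 8.18 ± 0.11 and 6.99, and Erap1 5.92 ± 0.15 and 4.32. Named to complete the interferon list after their values were seen, Irf1, a transcription factor of the response, averaged 8.85 in R1 and 7.17 to 7.80 elsewhere. Xaf1 averaged 9.36 in R1 and 8.01 in FpB6D2 but 4.59 to 5.61 in the remaining lines. A further Xaf1 probe set did not place R1 highest, with means of 5.995 in R1 and 6.95 in FpB6CBA. Parp12, the only one below, averaged 5.38 against 6.44 to 7.45.

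**Figure D3:**
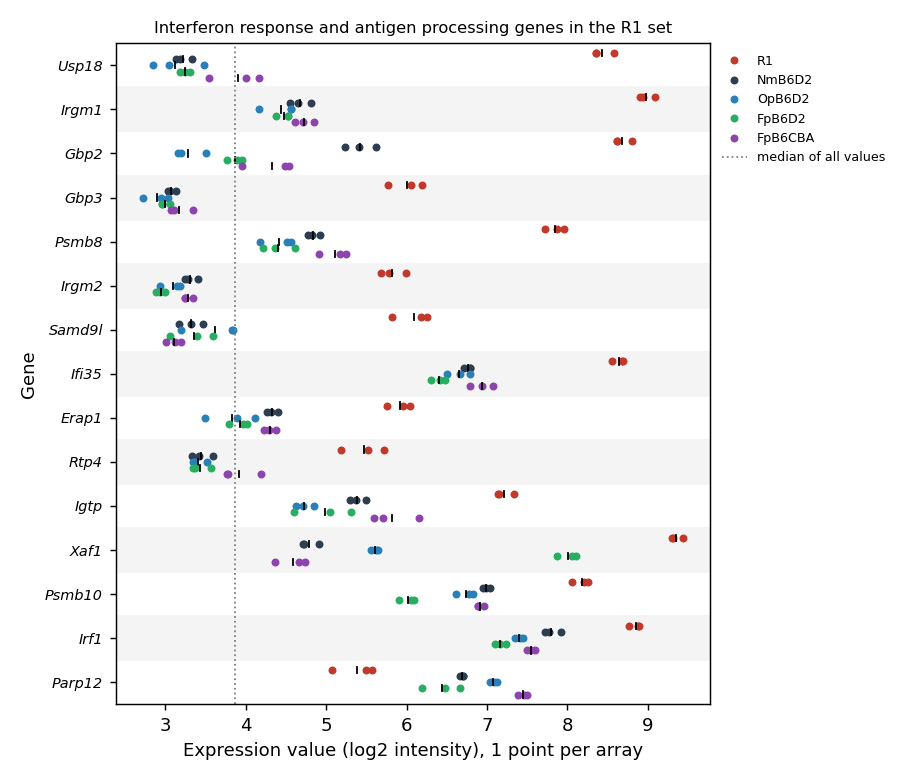
Each point is 1 array (log2 intensity) for the interferon response and antigen processing genes in the R1 sets, apart from Gbp2b, which was on neither list. R1 arrays lie to the right of all others except in Parp12, and the dotted line marks 3.864.

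Fibroblast markers, listed to look for feeder cells, were in part higher in R1. Of 34 measured, 7 were above and 0 below (Col1a1, Col3a1, Col5a1, Col6a3, Cnn1, Twist1 and Timp3), with a list median of 0.82. R1 had the highest mean in 21 of the 34 and the lowest in 4, against 3902 and 5773 of all 18193 genes. The linear intensities of the 34 markers summed to between 25968 and 26900 on the R1 arrays, to 9915 to 10845 in NmB6D2, 15563 to 19537 in OpB6D2, 14456 to 14934 in FpB6D2 and 13347 to 16038 in FpB6CBA. The 27 listed markers outside the set differed from the mean of the other lines by -1.12 to 1.58. Picked from these after their values were seen, Lum (2.71) and Fap (3.01) lay at background in R1, and Thy1 was lower in R1 (5.95) than in any other line (6.24 to 7.46). These 3 go against most of the list, where R1 was highest in 21 of the 34, and nothing is read from them. Col5a1, a fibrillar collagen gene, averaged 9.52 ± 0.10 in R1 and 6.80 to 7.50 elsewhere. Timp3, an inhibitor of matrix proteases, averaged 9.20 ± 0.14 against 6.44 to 7.42, and its 3 further probe sets had gaps of 1.63 to 2.04. Twist1, a mesenchymal transcription factor, averaged 5.55 ± 0.13 against 4.12 to 4.34. No measured marker of macrophages and blood cells, of 15, met the rule in either direction, and of 10 endothelial genes Kdr was above (6.63 in R1, at most 5.001 elsewhere) and Esam below (4.74 against 6.17 to 6.48). Over all genes 2.00% were above and 1.03% below, so single genes of such short lists are not read as a trait of the list. The part of the fibroblast markers in the values of the mesendoderm, Wnt and interferon genes was not tested.

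Genes of the naive and the later, primed epiblast were found in both sets. Of 30 naive genes 1 was above and 2 were below (list median 0.23), and of 15 primed genes 3 were above and 1 below (0.36). Zfp42, also known as Rex1 and a marker of naive cells, read 11.51, 11.22 and 11.35 on the 3 R1 arrays. It read 8.69, 8.75 and 8.63 in NmB6D2, 8.58, 8.45 and 8.56 in OpB6D2, 9.21, 9.10 and 9.14 in FpB6D2, and 8.12, 8.28 and 8.25 in FpB6CBA. R1 was highest on every array, 4.63-fold over FpB6D2. Dppa3, a naive and germ cell gene, read 5.19, 4.55 and 4.70 on the 3 R1 arrays. The other arrays read 7.84, 7.78 and 7.89 in NmB6D2, 7.49, 7.43 and 7.63 in OpB6D2, 7.45, 7.32 and 7.42 in FpB6D2, and 8.03, 8.11 and 7.90 in FpB6CBA. It was lowest on every R1 array, 5.99-fold below the nearest line. Dppa4 was 2.09-fold below the nearest line, with means of 9.41 ± 0.02 in R1 and 10.47 to 10.96 elsewhere.

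Among primed genes, Cdh2, the N-cadherin gene, averaged 8.69 ± 0.06 in R1 and 3.77 to 5.87 in the other lines, where OpB6D2 exceeded FpB6CBA (log2 difference of FpB6CBA from OpB6D2 -2.10 ± 0.16 SE, limma adjusted p = 7.1e-08). Lefty1, a Nodal antagonist, averaged 9.65 ± 0.06 against 7.22 to 8.43. The Fgf5 probe set used here was weak (4.81 in R1), whereas a second had 6.48 in R1 and at most 3.46 elsewhere. The de novo methyltransferase gene Dnmt3a averaged 6.26 ± 0.07 in R1, 9.04 in NmB6D2 and 7.45 in FpB6CBA, yet its 4 further probe sets placed R1 above the lowest other line by 0.81 and 0.57 or below it by no more than 0.65, and the mean over its probe sets gave -0.17. Of 18 measured genes of the FGF-ERK pathway, 2 were above (11.1%, against 2.00% of all genes). They were Dusp4, a phosphatase that limits ERK (8.56 ± 0.13, nearest line 6.54), and Egr1, an immediate early gene (8.78 ± 0.10, nearest line 6.40). In the primitive endoderm list Gata4 alone of 21 was above (4.76%, against 2.00% of all genes), at 7.40 ± 0.23 and 5.51 in FpB6CBA. Eomes was the only such gene of 17 on the trophectoderm list (5.88%). The neuroectoderm list had Olig2 alone of 12 below (8.33%, against 1.03% of all genes), at 3.13 in R1 and 4.28 to 6.40 elsewhere.

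Germ line genes formed a group among the genes below. Of 26 measured, 10 were below all 4 other lines (38.5%, against 1.03% of all genes) and 0 above, and the list median was -1.10. R1 had the lowest mean of all lines in 18 of the 26, against 5773 of all 18193 genes. The 16 listed genes outside the set differed from the mean of the other lines by -1.62 to 0.41. The promoters of a few are printed because they hold the E-box CACGTG, the recognition sequence of several basic helix-loop-helix factors. The windows are again the 250 bases before the RefSeq start site in GRCm38.p6, on the strand of the gene, with the E-box in capitals: Hormad1 at chr3:95559427-95559676 on the plus strand, Sycp1 at chr3:102936101-102936350 and Mael at chr1:166238745-166238994, both on the minus strand.
Hormad1: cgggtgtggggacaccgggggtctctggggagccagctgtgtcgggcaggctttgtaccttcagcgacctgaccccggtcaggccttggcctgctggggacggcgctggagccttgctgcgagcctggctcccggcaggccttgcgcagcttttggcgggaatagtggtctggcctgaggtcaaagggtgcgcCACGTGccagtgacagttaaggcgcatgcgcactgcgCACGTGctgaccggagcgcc
Sycp1: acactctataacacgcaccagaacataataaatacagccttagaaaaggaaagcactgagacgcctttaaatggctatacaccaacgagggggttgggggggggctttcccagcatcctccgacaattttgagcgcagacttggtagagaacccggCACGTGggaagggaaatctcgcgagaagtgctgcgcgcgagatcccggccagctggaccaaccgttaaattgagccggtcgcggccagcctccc
Mael: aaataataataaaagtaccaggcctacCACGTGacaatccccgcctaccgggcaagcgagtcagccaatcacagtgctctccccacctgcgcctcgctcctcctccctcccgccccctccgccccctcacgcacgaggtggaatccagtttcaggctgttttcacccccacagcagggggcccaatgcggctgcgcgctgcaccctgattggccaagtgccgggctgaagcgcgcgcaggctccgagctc
The Hormad1 window holds 2 matches, starting 57 and 20 bases before the start site. Of 6 germ line members with an entry 4 (66.7%) held the E-box, as did 6 of 13 other listed genes (46.2%) and 8.73% of all measured genes with an entry. The windows of the 6 members hold 4 to 19 CpG dinucleotides, with a median of 15.5. The medians were 15 over the 13 other listed genes, 14 over all measured genes with an entry and 17 over those that passed the filter. An E2F-type motif (TCCCGC) and a TCF/LEF motif (CTTTGAT) were searched too. The E2F-type motif lay in 2 of the 6 germ line members (33.3%) and 3 of 5 Wnt and BMP members (60%). Its share over all measured genes was 28%. The TCF/LEF motif lay in 1 of 4 mesendoderm members (25%) and 1 of the 5 Wnt and BMP members (20%), against 3.15%.

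Meiotic genes were among the members. Stra8, induced by retinoic acid at the entry to meiosis, read 4.01, 4.38 and 4.38 on the 3 R1 arrays. Its values were 7.54, 7.57 and 7.53 in NmB6D2, 8.69, 8.50 and 8.69 in OpB6D2, 7.34, 7.24 and 7.37 in FpB6D2, and 8.80, 8.98 and 9.01 in FpB6CBA. All R1 arrays lay below every other array. The other lines differed among themselves as well, with FpB6CBA above FpB6D2 by 1.61 ± 0.09 (SE, limma adjusted p = 3.8e-09). Hormad1, a protein of the meiotic chromosome axis, averaged 5.14 ± 0.13 in R1 and 7.54 to 8.17 elsewhere. Sycp1, of the synaptonemal complex, averaged 3.67 ± 0.11, which is under the filter value, and 5.87 to 7.72 elsewhere. Mael, which acts in piRNA silencing, had the widest spread between R1 arrays among these, at 6.57, 5.71 and 6.40 on the 3 R1 arrays, and averaged 8.02 in NmB6D2 and 8.995 in FpB6CBA, the lowest and highest of the other lines. Dmrt1, a transcription factor of the male germ line, averaged 5.04 ± 0.13 against 7.42 to 8.25.

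The Rhox homeobox genes, a cluster on the X chromosome expressed in reproductive tissues and early embryos, were 3 of the 10. Rhox5 read 6.58, 6.48 and 6.80 on the 3 R1 arrays. Outside R1 it read 11.05, 10.94 and 11.08 in NmB6D2, 10.89, 10.97 and 10.87 in OpB6D2, 10.22, 10.24 and 10.25 in FpB6D2, and 10.65, 10.76 and 10.65 in FpB6CBA. It was abundant in all other lines and 12.3-fold lower in R1 than in FpB6D2, the lowest of them. Rhox6 read 3.52, 3.37 and 3.47 on the 3 R1 arrays. Elsewhere its values were 8.58, 8.46 and 8.64 in NmB6D2, 7.21, 7.34 and 7.62 in OpB6D2, 8.30, 8.28 and 8.25 in FpB6D2, and 9.01, 8.93 and 8.88 in FpB6CBA. R1 alone was at background, and OpB6D2 was below FpB6CBA (difference of FpB6CBA from OpB6D2 1.55 ± 0.09 SE, limma adjusted p = 3.4e-09). Rhox9 averaged 4.27 ± 0.13 in R1 and 6.53 in OpB6D2, the nearest line. Rhox genes resemble one another, and their probe sets may share signal.

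The remaining genes with the largest gaps below were of several kinds. Car4, a membrane carbonic anhydrase, read 3.24, 3.42 and 3.02 on the 3 R1 arrays. It read 8.39, 8.48 and 8.50 in NmB6D2, 7.57, 7.42 and 7.56 in OpB6D2, 7.48, 7.65 and 7.63 in FpB6D2, and 7.80, 7.88 and 7.74 in FpB6CBA. R1 arrays were at background and all others at 7.42 or more, a difference of at least 12.6-fold, and a second probe set gave a gap of -3.06. Folr1, the folate receptor, averaged 6.17 ± 0.15 in R1 and 9.51 to 10.58 elsewhere. Nlrp4f, of a family expressed in oocytes and early embryos, averaged 3.39 ± 0.40 against 7.10 to 8.37. Catsperz, a subunit of the sperm calcium channel, averaged 3.83 ± 0.08 against 7.14 to 7.98, and Cyct, the testis cytochrome c, 4.99 ± 0.19 against 7.88 to 9.18. Neither is on the germ line list. Olig1, a basic helix-loop-helix factor of the neural lineage, averaged 2.84 ± 0.14 against 5.93 to 7.58. Niban1 averaged 4.87 ± 0.01 against 7.44 to 8.80, and Galnt6, which starts O-linked glycosylation, 4.57 ± 0.15 against 7.11 to 8.15. Dpp4, a cell-surface peptidase, averaged 3.84 ± 0.10 against 7.06 to 8.25, but its 2 other probe sets above the filter had gaps of only -0.21 and -0.92. Among short pathways, the p53 targets Pmaip1 and Sesn1 (2 of 18 measured, 11.1%) and the detoxification genes Gstm5 and Nqo1 (2 of 29, 6.90%) were in the set below, with gaps of -1.48 to -1.06. Over all genes 1.03% were in that set.

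**Figure D4:**
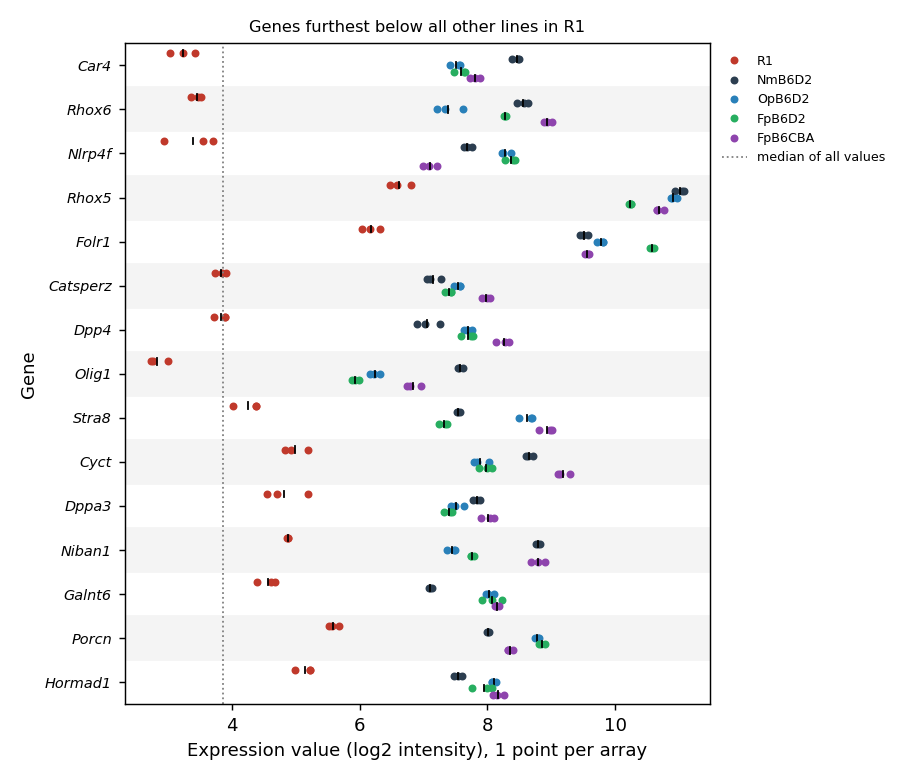
Each point is 1 array (log2 intensity) for the 15 named genes with the largest gap below the other lines, with line means as black ticks and a dotted line at 3.864. R1 arrays lie to the left of all others in every gene, and for Car4, Rhox6, Nlrp4f and Olig1 they lie at background.

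Imprinted genes, expressed from 1 parental allele, were divided. Parthenogenetic lines have no paternal genome, so the fertilised R1 and NmB6D2 are the lines with both parental sets. Of 28 measured genes expressed from the paternal allele 3 were above (10.7%) and 2 below (7.14%). Of 27 expressed from the maternal allele 2 were above (7.41%) and 0 below. Over all genes 2.00% were above and 1.03% below. Igf2, a paternally expressed fetal growth factor gene, read 11.10, 11.56 and 11.37 on the 3 R1 arrays. The other arrays read 9.74, 9.68 and 9.79 in NmB6D2, 5.87, 6.18 and 6.22 in OpB6D2, 5.48, 6.17 and 6.03 in FpB6D2, and 7.06, 7.11 and 7.001 in FpB6CBA. R1 was highest and NmB6D2 next, without overlap, and all parthenogenetic arrays were lower than both. Phlda2, a maternally expressed gene that limits placental growth, read 11.32, 11.49 and 11.22 on the 3 R1 arrays. Its values were 8.14, 8.06 and 8.15 in NmB6D2, 6.75, 6.65 and 6.61 in OpB6D2, 6.41, 6.32 and 6.48 in FpB6D2, and 8.05, 7.95 and 7.97 in FpB6CBA. R1 was 9.36-fold above NmB6D2, and FpB6CBA was above FpB6D2 by 1.59 ± 0.07 (SE, limma adjusted p = 2.4e-10). Asb4, also maternally expressed, averaged 8.20 ± 0.12 in R1 and 2.83 to 2.997 in the others, at least 20.2-fold higher, and a further probe set had a gap of 4.95.

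The other paternally expressed members were Plagl1 and Inpp5f above and Nnat and Slc38a4 below. Plagl1, a zinc finger gene, averaged 10.04 ± 0.13 in R1, 5.53 in NmB6D2 and 7.49 to 8.01 in the parthenogenetic lines, so the other fertilised line was the lowest. That probe set may match several transcripts, and the one further probe set above the filter gave a gap of 0.81. Nnat, a membrane protein gene, averaged 4.17 ± 0.35 in R1 against 6.42 to 8.71. Inpp5f averaged 7.04 ± 0.19 against 5.23 to 5.66, and the amino acid transporter gene Slc38a4 8.62 ± 0.04 against 9.80 to 10.84, with a gap of only -0.20 in a second probe set.

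Other probe sets of the same genes, which the rule did not use, mostly lay on the same side. They are counted here with no filter on low values. For genes above, R1 lay above all 4 other means in 281 of 410 further probe sets (68.5%), and by at least 1 log2 unit in 123. Over all genes R1 lay above in 24.9% of further probe sets and by that distance in 1.86%. For genes below, R1 was the lowest line in 109 of 147 (74.1%) and by at least 1 log2 unit in 34 (23.1%), against 26.5% and 0.376% over all genes. These probe sets read the same RNA samples, so they bear on the probes and not on the lines.

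The other 4 lines were compared with each other by limma, fitted over all 12813 genes that passed the filter and called where the adjusted p lay under 0.05 and the difference reached 2-fold. In at least 1 of the 6 comparisons 20.9% of all genes tested were called. Among the genes chosen, 78 above and 81 below were called. Of the 358 genes above that were tested, 69 passed the filter only with the R1 arrays and are low in the 4 lines compared, so nothing is read from their share. All 187 genes below were tested. The spread between the 4 other line means had a median of 0.59 log2 units for genes above, 0.94 for genes below and 0.56 for all genes tested. These p-values rest on how far the 3 arrays of each line differ, which may be technical.

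Among the genes below, calls were most frequent for FpB6CBA above OpB6D2 and above FpB6D2. FpB6CBA exceeded OpB6D2 in 28 of the 187, where 5.05% of all genes were called, and FpB6D2 in 29 (15.5%, against 6.03%). OpB6D2 exceeded FpB6CBA in 15 (8.02%, against 4.97%) and FpB6D2 did so in 16 (8.56%, against 5.14%). With NmB6D2 as the reference, OpB6D2 was higher in 18 and lower in 18 (9.63% each, against 3.24% and 2.60%), FpB6D2 higher in 17 (9.09%, against 5.22%) and lower in 21 (11.2%, against 5.53%), and FpB6CBA higher in 20 (10.7%, against 2.57%) and lower in 9 (4.81%, against 1.63%). The follicle-derived FpB6D2 was higher than OpB6D2 in 6 (3.21%, against 1.31%) and lower in 13 (6.95%, against 2.44%). Cyct was 1 of these, higher in FpB6CBA than in OpB6D2 by 1.29 ± 0.09 (SE, limma adjusted p = 4.2e-08), and Sycp1 another, higher in FpB6CBA than in FpB6D2 by 1.66 ± 0.11 (adjusted p = 8.5e-09). For the genes above in R1 the share called in 1 direction of a comparison lay between 1.12% (4 genes, FpB6D2 over OpB6D2, against 1.31% of all genes) and 7.54% (27 genes, FpB6CBA under OpB6D2, against 4.97%). Nothing is read from these shares either. The 6 comparisons share lines, so their counts are not independent.

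Along the genome the genes above were most numerous on chromosome 11. It held 52 of the 364 (14.3%) and 7.93% of the measured genes, so that 3.60% of its genes were in the set against 2.00% overall. The median difference between R1 and the mean of the other lines over the 1088 chromosome 11 genes that passed the filter was 0.08. On the other autosomes this median lay between -0.11 (chromosome 7) and 0.006 (chromosome 13). Against the single lines the chromosome 11 median was 0.08 (NmB6D2), 0.10 (OpB6D2), 0.10 (FpB6D2) and 0.02 (FpB6CBA). The X chromosome held 22 of the 187 genes below (11.8%) and 3.39% of the measured genes. Its median in R1 differed by 0.04 from NmB6D2, by -0.36 from OpB6D2, by -0.40 from FpB6D2 and by 0.04 from FpB6CBA. The medians of single autosomes lay between -0.10 and 0.10 against OpB6D2 and between -0.15 and 0.10 against FpB6D2.

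Runs of at least 3 genes of 1 direction among 6 neighbouring measured genes were found at 4 places. On chromosome 3 they were the neighbours Gbp3, Gbp2b and Gbp2. On chromosome 11 they were Igtp, Irgm2 and Zfp672, with 2 measured genes outside the set among them, and Smtn, Tug1 and Morc2a. Smtn, a gene of smooth muscle cells, averaged 8.39 ± 0.10 in R1 and 6.31 to 7.25 elsewhere. Tug1, a long non-coding RNA, averaged 10.06 ± 0.11 against 7.59 to 8.29, and Morc2a, a chromatin silencing factor, 9.37 ± 0.07 against 7.13 to 7.94. The run below lay on the X chromosome and held Gm9, Rhox5, Rhox6 and Rhox9.

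**Figure D5:**
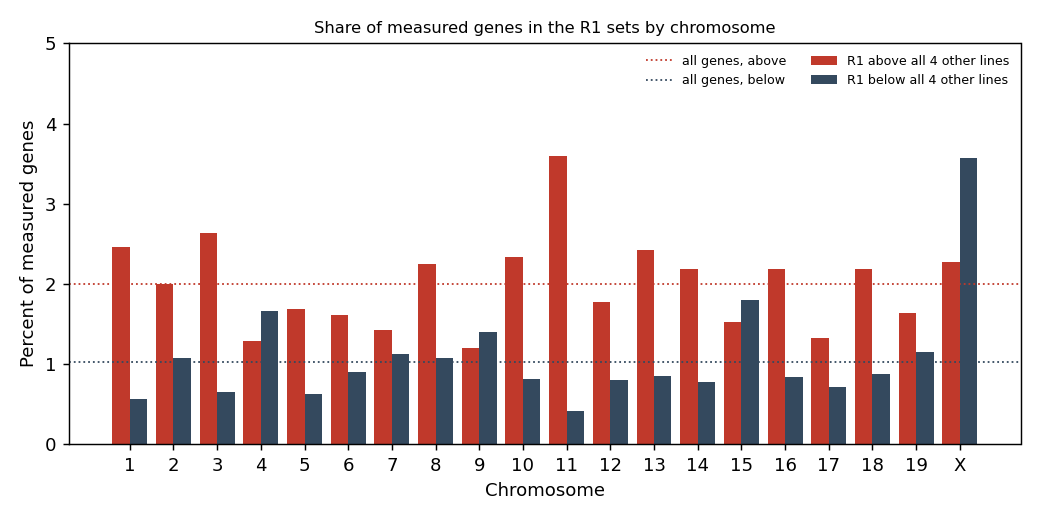
Bars give the percent of the measured genes of each chromosome that lay at least 1 log2 unit above (red) or below (dark) all 4 other lines in R1, with dotted lines at the shares over all genes, 2.00% and 1.03%. Chromosome 11 has the highest bar above (3.60%) and the X chromosome the highest below (3.57%).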

How the data were processed

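The deposited values are log2 expression values, 1 per probe set and array, which the authors made with RMA and the affy package, per the submitters' processing notes. The log base is not stated and was taken from the range of the values, 1.99 to 13.96. Of 45101 probe sets, 34945 carried 1 gene symbol, 932 several, 9160 none, and 64 were controls. Each gene was read from its brightest probe set, by the mean of the 15 arrays, which gave 18193 genes, of which 18032 matched a RefSeq gene table of GRCm38.p6. Line means of 3 arrays were compared directly for the rule, at 1 log2 unit. No further normalisation was applied.

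Comparisons among the 4 lines other than R1 were contrasts in a limma fit (limma 3.58.1, R 4.3.3) with a mean for each line over all 15 arrays and Benjamini-Hochberg adjustment over the 12813 genes that reached 3.864 on at least 3 arrays. Tested on simulated data of 12813 genes for OpB6D2 against NmB6D2, the fit called 100% of 200 genes shifted by 1.5 log2 units and 0 of the rest. The simulated arrays had independent noise with the spread seen within lines, and the shift was larger than the 2-fold minimum. This checks that the fit runs as intended and says nothing about differences between cultures or derivations of a line. Summed marker levels are sums of 2 to the power of the log2 value. Promoter sequences are RefSeq's.

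The members, the 25 gene lists (520 of 578 entries measured) and the tests were chosen with earlier results of these data known. Named genes are the 15 with the largest gap in each direction without clone or predicted names, up to 8 per list by gap, members of runs, the 3 on either side of the threshold, and Pou5f1, Sox2 and Nanog. Irf1, Xaf1, Parp12, Lum, Fap and Thy1 were named besides these, after their values were seen. The alternatives tried were other choices or means of probe sets, quantile normalisation, median centring, other thresholds and filters, other variance models, a block on the array number, and leaving out each array or line. Array titles give a number for 13 arrays. Of 12 pairs of arrays with the same number in different lines, 1 had deviations that correlated above 0.1 (range -0.18 to 0.13), so the numbers were not treated as pairs. The number of arrays limits the precision.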

Additional observations from a re-analysis of the deposited data

Results flagged for a closer look

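Of the 10092 probe sets with no single gene symbol, which the gene counts leave out, 52 (0.515%) had an R1 mean at least 1 log2 unit above all 4 other lines and 31 (0.307%) at least 1 below. With another line in the place of R1 the numbers were 4 and 2 for NmB6D2, 12 and 3 for OpB6D2, 8 and 7 for FpB6D2, and 9 and 20 for FpB6CBA. They are given because they are signals outside the measured genes. The probe set 1419304_at had a mean of 9.91 in R1 and 3.02 to 3.13 in the other lines, a gap of 6.78, and 1435872_at had 5.24 in R1 and 8.72 to 9.39 elsewhere. Neither carries a gene symbol in the array annotation used here.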

How the results depend on the processing

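The rule took 364 genes above and 187 below all other lines in R1. Under 29 of 30 alternatives each, these numbers stayed within 1.5 times of their values. This is not read as support, because the rule largely fixed the outcome of several alternatives. Requiring arrays without overlap gave 364 and 187 again. Keeping only genes that passed the filter gave 358 and 187, as did requiring limma to call R1 different from every other line. That call reuses the differences that chose the genes, so it does not test them. Leaving out a line can only add genes. At a distance of 1.5 log2 units in place of 1 there were 180 and 65. Leaving out 1 array at a time gave 359 to 371 above and 178 to 191 below. With the mean of all probe sets of a gene there were 266 and 141, of which 243 and 140 were the same genes. The counts of genes called among the other lines, 78 above and 81 below, ranged from 72 to 80 and from 78 to 85 without 1 array. With no fold minimum they were 279 (77.9% of those tested) and 182 (97.3%), where 85.7% of all genes tested were called. With the mean of all probe sets the count above was 46 (17.6%, against 15.4% of all genes tested). A block on the array number gave 364 and 177 genes by the rule (335 and 167 shared) and 90 and 77 called, but same-numbered arrays did not deviate together, so the block is not a pairing. None of the 1738 values under alternatives reversed for the 87 members named by gap, list or run. Pou5f1, Sox2, Nanog and the genes at the threshold other than Fgf5 were not rerun. Of the 87, 12 fell within 1 log2 unit in at least 1 alternative: with the mean of all probe sets these were Col3a1 (0.98), Dnmt3a (-0.17), Fzd10 (0.65), Igf2 (0.96), Inpp5f (0.84), Kbtbd11 (0.97), Rtp4 (0.60) and Slc38a4 (-0.69), without probe sets open to cross-hybridisation Plagl1 (0.81), with quantile normalisation Cnn1 (0.97) and Fgf5 (0.98), the latter also without R1 replicate 3 (0.86) or FpB6CBA replicate 2 (0.92), and without R1 replicate 4 Gstm5 (-0.96). Values near or under 3.864 lie close to background, and differences among them have no firm size.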
